A study of Homo sapiens with 8 samples.

Results

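Notch signalling genes were examined in MCF10A cells, an immortalised, non-tumorigenic human breast epithelial line with basal features. The 9 genes were taken by symbol from the 29991 entries of the deposited expression table. They comprised the receptor genes NOTCH1, NOTCH2 and NOTCH3, the ligand genes JAG1, JAG2 and DLL1, the nuclear factor gene RBPJ, and the target genes HES1 and HEY1. Cells had been transfected with siRNA to LATS1 and LATS2, kinases of the Hippo pathway (siLATS1/2), with siRNA to p53 (sip53), with both together (siLATS1/2/p53) or with a control siRNA (siControl). Polyadenylated RNA of each group was sequenced in 2 libraries, labelled as independent batches of cells, so that 8 libraries covered 4 groups. The labels gave no dose, no time after transfection and no siRNA sequence. All groups were the same cell line after transient transfection.

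Notch receptors are transmembrane proteins that bind Jagged and Delta-like ligands on neighbouring cells. Binding leads to cleavage of the receptor by ADAM proteases and then by gamma-secretase, which frees an intracellular fragment. In the nucleus this fragment joins the DNA-binding protein encoded by RBPJ and Mastermind-like coactivators and switches on target genes, among them repressors of the HES and HEY families. Without the fragment, RBPJ is bound by corepressors. In the breast, Notch signalling takes part in the choice between basal and luminal fates.

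The promoters of 4 of these genes are shown because the comparisons below turn on their transcripts and because the RBPJ-binding core sits in a pair of them. The windows are from RefSeq on GRCh38.p14 and run from 250 bases before the transcript start to 50 after it, 5′ to 3′ on the gene's strand. The reads were mapped to hg19, so the windows are sequence context and carry no measurement. Capitals mark the letters TGGGAA or, on the other strand, TTCCCA. HES1 lies at chr3:194135898-194136197 (+ strand), RBPJ at chr4:26319496-26319795 (+), JAG1 at chr20:10673950-10674249 (-) and JAG2 at chr14:105168727-105169026 (-).
HES1: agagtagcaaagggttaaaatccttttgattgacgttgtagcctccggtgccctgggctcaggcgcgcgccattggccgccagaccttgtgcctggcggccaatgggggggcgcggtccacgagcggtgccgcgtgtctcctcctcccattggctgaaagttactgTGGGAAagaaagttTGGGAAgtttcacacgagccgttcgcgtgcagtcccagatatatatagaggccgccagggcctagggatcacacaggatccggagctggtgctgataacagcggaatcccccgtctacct
RBPJ: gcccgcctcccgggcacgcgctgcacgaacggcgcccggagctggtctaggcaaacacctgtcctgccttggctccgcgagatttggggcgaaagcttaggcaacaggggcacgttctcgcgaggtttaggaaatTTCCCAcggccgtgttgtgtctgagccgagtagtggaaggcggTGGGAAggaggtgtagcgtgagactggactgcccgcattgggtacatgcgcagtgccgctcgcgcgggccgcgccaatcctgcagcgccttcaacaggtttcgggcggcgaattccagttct
JAG1: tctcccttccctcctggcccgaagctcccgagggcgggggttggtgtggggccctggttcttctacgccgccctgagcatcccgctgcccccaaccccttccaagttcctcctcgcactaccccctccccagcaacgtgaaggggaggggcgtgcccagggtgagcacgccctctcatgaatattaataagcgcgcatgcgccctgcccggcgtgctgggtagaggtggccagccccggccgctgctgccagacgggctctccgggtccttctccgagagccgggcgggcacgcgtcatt
JAG2: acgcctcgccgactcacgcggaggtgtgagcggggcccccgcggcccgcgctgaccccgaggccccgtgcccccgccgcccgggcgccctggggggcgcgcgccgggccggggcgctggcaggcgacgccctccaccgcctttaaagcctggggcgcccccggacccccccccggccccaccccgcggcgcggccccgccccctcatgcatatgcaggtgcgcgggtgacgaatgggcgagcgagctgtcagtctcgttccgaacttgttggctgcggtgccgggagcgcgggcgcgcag

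The HES1 window held the core at 2 places on its own strand, 84 and 70 bases upstream of the start. The RBPJ window held it once on each strand, 115 and 72 bases upstream, and it was the only one of the 5 RefSeq windows of RBPJ with a match. RefSeq windows were found for 7 of the 9 genes, 11 windows in all. Over the 35116 promoters of the same length, 24.0% held the core and 3.8% held it 2 or more times. The letters GGAATG, the core bound by the TEAD partners of YAP, were in 14% of promoters and in none of the 11 windows, nor was a p53 half-site, which 6.63% of promoters held. The letters CACNAG, the N-box bound by HES repressors, were in 38.0% of promoters. They occurred 4 times in the HES1 window and once each in those of NOTCH2 and NOTCH3. An RBPJ window other than the one printed held them 2 times. The NOTCH1 window also held 2 matches, which were overlapping letters of 1 stretch read on both strands. Each motif was searched on both strands. These matches describe letters and are not evidence of binding, and a window without a match says nothing about the factor.

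Values are log2 expression levels as deposited. Whether they were scaled to transcript length was not given, so levels are compared between groups and not between genes. No value lay below 5, or 32 on the linear scale, which understates differences of low genes. All 9 Notch genes were among the 12315 entries tested, which exceeded that floor in 2 or more libraries, and 8 of the 9 exceeded it in all 8. HEY1 passed through its 2 sip53 libraries and 1 siControl library. Depth was not given. The spacing of low values put it at 11.3 to 37.1 M reads per library, lowest in the batch 1 libraries of siLATS1/2/p53 and siControl. These are estimates. The median SE of a difference over all entries was 0.143 on the log2 scale, and 0.102 in a fit with the batch of cells as a block. All 7 basal epithelial markers checked (KRT5, KRT14, KRT17, TP63, ITGB4, EGFR and CDH3) lay above the floor. Against siControl, LATS1 was 2.98-fold and LATS2 2.63-fold lower in siLATS1/2 cells, and 3.16-fold and 2.44-fold lower in siLATS1/2/p53 cells. The p53 target CDKN1A was 6.14-fold lower in sip53 cells and 5.80-fold lower in siLATS1/2/p53 cells than in siControl.

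Differences that passed the test were found for 5 of the 9 Notch genes in at least 1 of 5 comparisons between groups, where 25% of all entries tested had such a call, and were under 2-fold. After LATS1/2 knockdown alone, the ligand gene JAG2 rose and the target gene HES1 fell. After combined knockdown, the receptor gene NOTCH2 rose, while JAG1 and RBPJ fell. With p53 knockdown added to LATS1/2 knockdown, both JAG1 and JAG2 fell. Each of these calls was lost without at least 1 library, and with only the groups compared. After p53 knockdown alone no Notch gene passed in the fit without a batch block. With the batch of cells as a block 3 were higher and 4 lower, where 16% of all entries were higher and 10% lower. HEY1 is 1 of the 3, and its call carries no weight, since its sip53 libraries brought it into the test. Of these 7 calls, only the fall of JAG2 passed whichever library was left out. The plot of levels by library shows the values behind these statements.

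**Figure D1:**
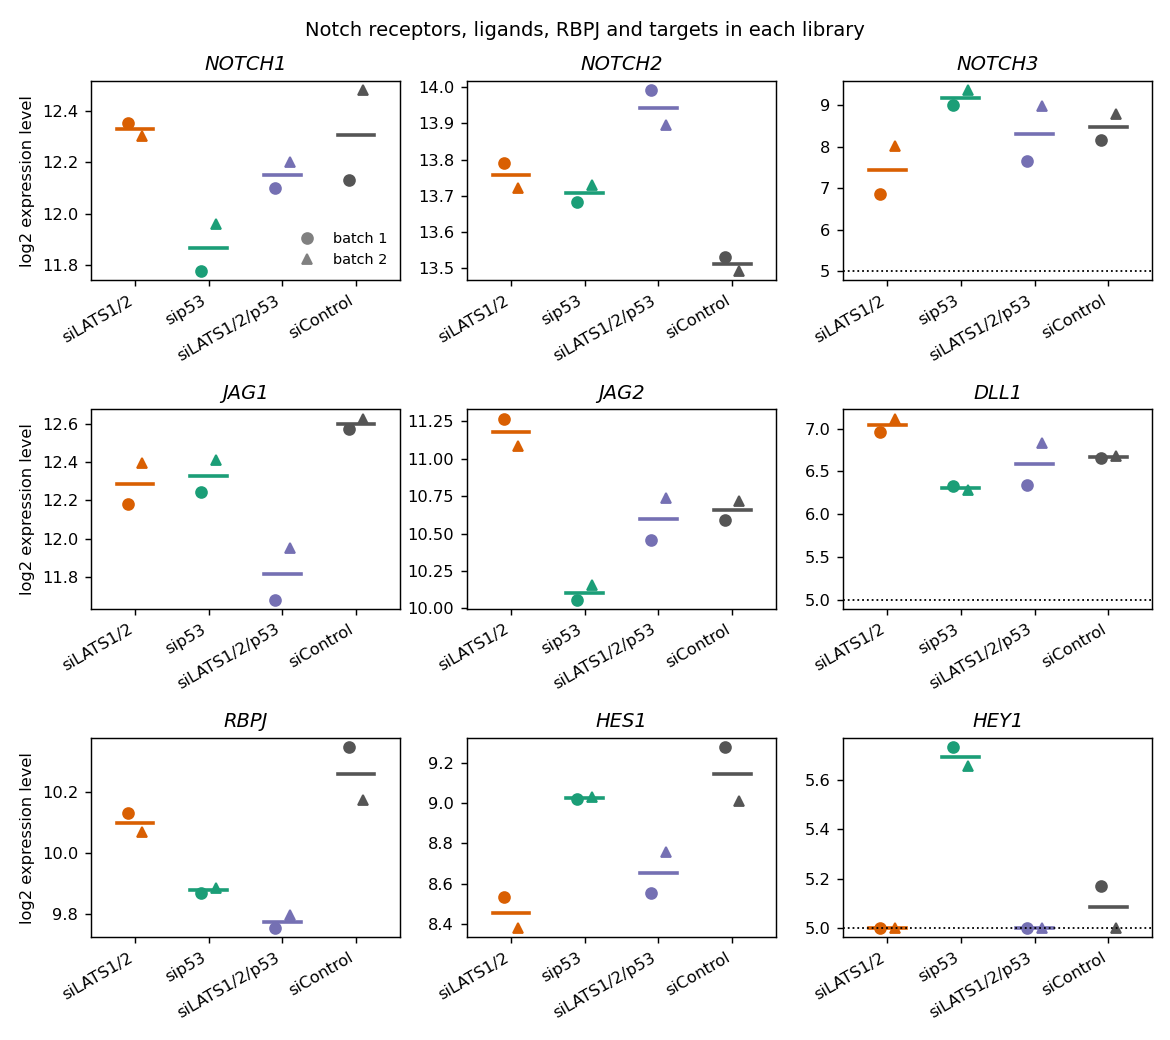
Log2 expression level (vertical axes, deposited scale with a floor of 5) of the 9 Notch genes in the 8 libraries, by siRNA group, with a circle for batch 1, a triangle for batch 2, a bar for the group mean and a dotted line at the floor. JAG2 was highest in both siLATS1/2 libraries (11.27 and 11.08) and lowest in both sip53 libraries (10.06 and 10.15), and JAG1 was lowest in both siLATS1/2/p53 libraries (11.68 and 11.95).

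Each difference was tested with limma in 1 fit over the 4 groups, with Benjamini-Hochberg adjustment over all 12315 entries and a threshold of 0.05. In siLATS1/2 minus siControl, 1 Notch gene was higher and 1 lower of 9, where 2.81% of all entries tested were higher and 4.89% lower. In sip53 minus siControl none of the 9 passed, where 1.76% of all entries were higher and 2.1% lower. In siLATS1/2/p53 minus siControl 1 was higher and 2 were lower, where 9.07% of all entries were higher and 5.48% lower. In siLATS1/2/p53 minus siLATS1/2 none was higher and 2 were lower, against 11.3% and 3.22% of all entries. In siLATS1/2/p53 minus sip53 none passed, where 2.54% of all entries were higher and 1.12% lower. With so few genes these counts are a description.

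The 9 genes had median differences, in the same order of comparisons, of -0.09, -0.27, -0.15, -0.18 and -0.10 on the log2 scale. Over all entries tested the medians were -0.07, 0.06, 0.08, 0.15 and 0.01. Rescaling the libraries by medians of ratios moved every difference between siLATS1/2/p53 and siLATS1/2 by -0.16, and those of the other comparisons by less than 0.1. After it, the calls split into 437 higher and 348 lower for siLATS1/2 minus siControl, against 346 and 602 before it. The split was 117 higher and 332 lower after rescaling for sip53 minus siControl, against 217 and 258 before, and 837 and 924 for siLATS1/2/p53 minus siControl, against 1117 and 675 before. For siLATS1/2/p53 minus siLATS1/2 it was 547 and 653 after rescaling, against 1395 and 396 before.

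Libraries with the same number share a batch of cells, and a fit with the batch as a block gave smaller errors. With that block, 2 Notch genes were higher and 3 lower in siLATS1/2 minus siControl, where 10.5% of all entries were higher and 21.4% lower. The numbers were 3 higher and 4 lower in sip53 minus siControl (16% and 10% of all entries), and 1 higher and 3 lower in siLATS1/2/p53 minus siControl (25.5% and 13.8%). In siLATS1/2/p53 minus siLATS1/2 they were 2 and 4 (33.8% and 9.72%), and in siLATS1/2/p53 minus sip53 they were 3 and 4 (12.7% and 9.42%). HEY1, which entered the test through its sip53 libraries, is 1 of the 3 higher in sip53 minus siControl and 1 of the 4 lower in siLATS1/2/p53 minus sip53, and its calls carry no weight. With the block every Notch gene had a call in at least 1 comparison, as had 67.1% of all entries tested. The blocked p-values are given below wherever the block changed a call. Each ± beside a difference between groups or an interaction is the SE of the fit without the block. It is therefore not the error behind a blocked p-value. Only the differences between batches carry the SE of the blocked fit.

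**Figure D2:**
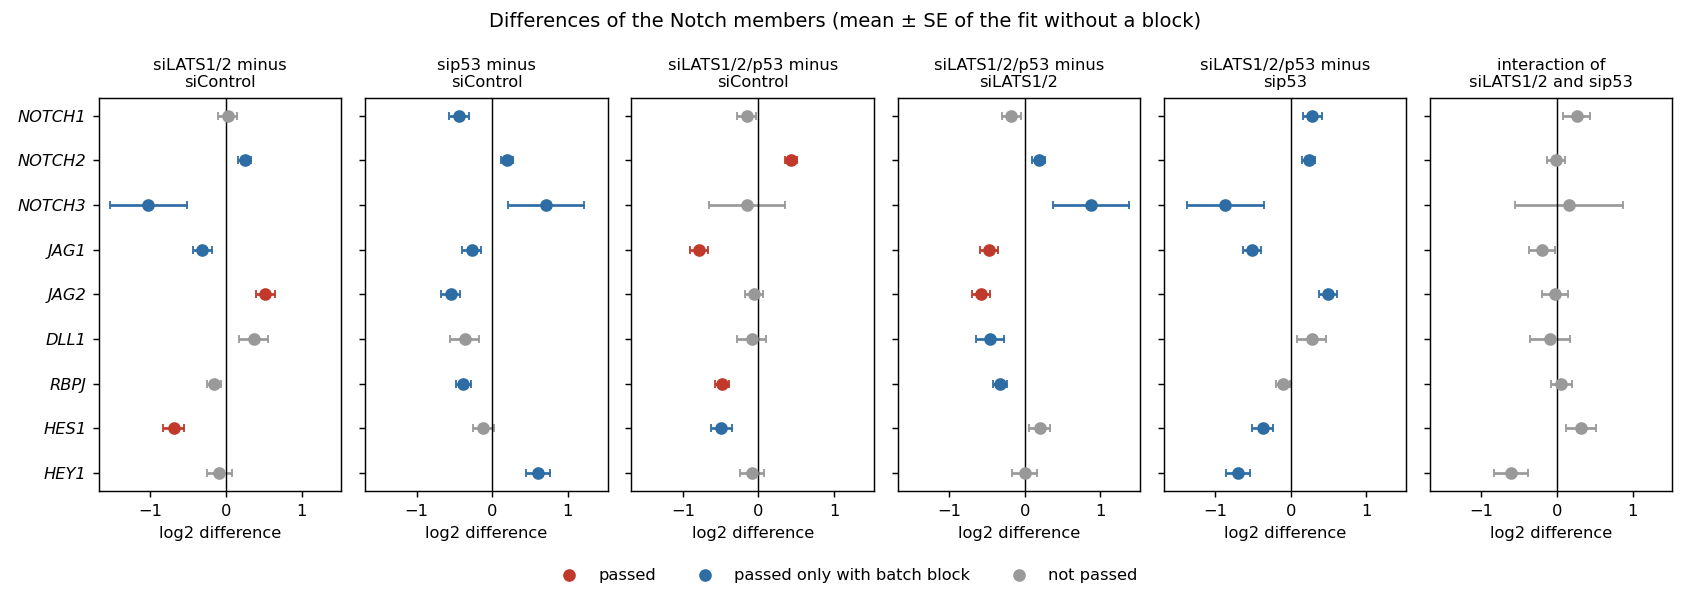
Difference in log2 level (horizontal axis) of each of the 9 Notch genes in the 5 comparisons between groups and in the interaction, with SE from the fit without the batch block. Red marks values that passed in that fit, blue those that passed only with the batch as a block, and grey the rest. The furthest values from 0 among the red ones are JAG1 in siLATS1/2/p53 minus siControl (-0.79) and HES1 in siLATS1/2 minus siControl (-0.69), and NOTCH3, blue at -1.03 in siLATS1/2 minus siControl, has the widest errors (SE 0.51).

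Among the receptors, NOTCH2 was the only one with a call in the fit without the block. Its level was 13.79 and 13.72 in siLATS1/2 libraries, 13.68 and 13.73 in sip53, 13.99 and 13.89 in siLATS1/2/p53, and 13.53 and 13.49 in siControl. All 6 knockdown libraries lay above both siControl libraries, the siLATS1/2/p53 pair lay highest, and the siLATS1/2 and sip53 pairs overlapped. NOTCH2 rose by 0.43 ± 0.08 (SE), or 1.35-fold, in siLATS1/2/p53 cells relative to siControl (limma, adjusted p = 0.0166). The call was lost without siControl replicate 1 (adjusted p = 0.0624), siControl replicate 2 (0.0600) or siLATS1/2/p53 replicate 1 (0.0814), and with the block it passed whichever library was left out.

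The smaller differences of NOTCH2 passed only with the batch as a block. It was 0.25 ± 0.08 for siLATS1/2 minus siControl (adjusted p = 0.119, with the block 0.0123) and 0.19 ± 0.08 for sip53 minus siControl (0.233, with the block 0.0438). For siLATS1/2/p53 minus siLATS1/2 it was 0.19 ± 0.08 (adjusted p = 0.164, with the block 0.0346), and with block and rescaling it was 0.03 (adjusted p = 0.741). The difference between siLATS1/2/p53 and sip53 was 0.24 ± 0.08 (0.189, with the block 0.0197). The blocked sip53 call was lost without any 1 of the 8 libraries and with rescaling (adjusted p = 0.144). The blocked siLATS1/2 call was lost without either siLATS1/2 or either siControl library (adjusted p up to 0.133), and the one between siLATS1/2/p53 and sip53 without any 1 of their 4 libraries (up to 0.264). The blocked call relative to siLATS1/2 was lost without any library but those of siControl (up to 0.188). NOTCH2NL, a near-identical partial copy of NOTCH2 whose reads may be shared with it, was listed at 8.97 to 9.34 and passed in none of the comparisons, so the NOTCH2 values are uncertain to that extent. It was chosen for this check after its values were seen.

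NOTCH1, the best-studied receptor in epithelia, was lowest after p53 knockdown. Its level was 12.35 and 12.30 in siLATS1/2 libraries, 11.78 and 11.96 in sip53, 12.10 and 12.20 in siLATS1/2/p53, and 12.13 and 12.48 in siControl. Both sip53 libraries lay below the other 6, and the siLATS1/2 and siLATS1/2/p53 values overlapped the siControl range. The difference for sip53 minus siControl was -0.44 ± 0.13 (limma, adjusted p = 0.107) and passed with the batch as a block (adjusted p = 0.00194), a call that was lost without sip53 replicate 1 (adjusted p = 0.0600). Between siLATS1/2/p53 and sip53 it was 0.28 ± 0.13 (adjusted p = 0.297, with the block 0.0266), a blocked call lost without any 1 of the 4 libraries of these groups (adjusted p up to 0.224). For siLATS1/2/p53 minus siLATS1/2 it was -0.18 ± 0.13 and passed only with block and rescaling together (-0.33, adjusted p = 0.00651). For siLATS1/2/p53 minus siControl it was -0.16 ± 0.13, and with all 8 libraries kept it likewise passed only so (-0.23, adjusted p = 0.0391).

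NOTCH3 differed more between batches than any other Notch gene. Its level was 6.86 and 8.03 in siLATS1/2 libraries of batches 1 and 2, 9.0 and 9.37 in sip53, 7.66 and 8.98 in siLATS1/2/p53, and 8.16 and 8.78 in siControl. Both siLATS1/2 libraries lay below both siControl libraries, both sip53 libraries lay above all others, and siLATS1/2/p53 overlapped siLATS1/2 and siControl. Relative to siControl the difference was -1.03 ± 0.51 in siLATS1/2 cells (limma, adjusted p = 0.257) and 0.71 ± 0.51 in sip53 cells (adjusted p = 0.463). Within batches it was -1.30 and -0.76 for siLATS1/2, and 0.84 and 0.59 for sip53. With the batch as a block both passed (adjusted p = 0.000976 and 0.0124). The blocked siLATS1/2 call was lost without siLATS1/2 replicate 1 (adjusted p = 0.116). The blocked sip53 call was lost without any 1 of 4 libraries, with adjusted p up to 0.322.

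On top of LATS1/2 knockdown, p53 knockdown left NOTCH3 0.88 ± 0.51 higher (limma, adjusted p = 0.267, with the block 0.00208), by 0.80 and 0.95 within batches. Against sip53 alone, siLATS1/2/p53 cells were 0.87 ± 0.51 lower (difference -0.87, adjusted p = 0.428, with the block 0.00415), by -1.34 and -0.39 within batches. Neither of these passed without the block, and with it each was lost without some libraries, with adjusted p up to 0.132 and 0.184.

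The ligand gene JAG2 was highest after LATS1/2 knockdown and lowest after p53 knockdown. Its level was 11.27 and 11.08 in siLATS1/2 libraries, 10.06 and 10.15 in sip53, 10.46 and 10.74 in siLATS1/2/p53, and 10.59 and 10.72 in siControl. The siLATS1/2 pair lay above all other libraries, the sip53 pair below all others, and the siControl pair lay inside the range of siLATS1/2/p53. JAG2 rose by 0.52 ± 0.12, or 1.43-fold, in siLATS1/2 cells relative to siControl (limma, adjusted p = 0.0468, with the block 0.00123). This call was lost without either siLATS1/2 library (adjusted p = 0.273 and 0.119), either sip53 library (0.0855 and 0.0863) or either siControl library (0.166 and 0.104). With the block it was lost without siLATS1/2 replicate 1 (0.0861).

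In sip53 cells JAG2 differed from siControl by -0.55 ± 0.12, which missed the threshold (limma, adjusted p = 0.0548) and passed with the block (adjusted p = 0.00112). The blocked value passed whichever library was left out, with adjusted p of 0.00758 to 0.0384. Relative to siLATS1/2 alone, JAG2 fell by 0.58 ± 0.12, or 1.49-fold, in siLATS1/2/p53 cells (adjusted p = 0.0230). That call was lost without siLATS1/2 replicate 1 (adjusted p = 0.147), siLATS1/2 replicate 2 (0.0817) or siLATS1/2/p53 replicate 1 (0.120), and with the block it passed whichever library was left out. Relative to sip53 alone, siLATS1/2/p53 cells differed by 0.49 ± 0.12 (adjusted p = 0.0789, with the block 0.00235), and that blocked call was lost without either sip53 library or siLATS1/2/p53 replicate 2 (up to 0.0955). Between siLATS1/2/p53 and siControl the difference was -0.06 ± 0.12 (adjusted p = 0.792).

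JAG1, the other Jagged ligand gene, was lowest after combined knockdown. Its level was 12.18 and 12.40 in siLATS1/2 libraries, 12.24 and 12.41 in sip53, 11.68 and 11.95 in siLATS1/2/p53, and 12.57 and 12.63 in siControl. Every knockdown library lay below both siControl libraries, both siLATS1/2/p53 libraries lay below the other 6, and the siLATS1/2 and sip53 pairs overlapped. JAG1 fell by 0.79 ± 0.12, or 1.72-fold, in siLATS1/2/p53 cells relative to siControl (limma, adjusted p = 0.00833, with the block 1.39e-06). The difference was -0.89 and -0.68 within batches, and the call was lost without siLATS1/2/p53 replicate 1 (-0.65, adjusted p = 0.0564). With the block it passed whichever library was left out.

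The single knockdowns left JAG1 -0.31 ± 0.12 from siControl in siLATS1/2 cells (limma, adjusted p = 0.162, with the block 0.00409) and -0.27 ± 0.12 in sip53 cells (adjusted p = 0.253, with the block 0.0118). Each of these blocked calls was lost without siControl replicate 1 or either library of its own knockdown, with adjusted p up to 0.103 and 0.140. Relative to siLATS1/2 alone, JAG1 fell by 0.47 ± 0.12, or 1.39-fold, in siLATS1/2/p53 cells (adjusted p = 0.0435), a call lost without any 1 of the 8 libraries (adjusted p = 0.0503 to 0.203). With the block that value passed (adjusted p = 0.000164) whichever library was left out. Relative to sip53 alone the difference was -0.51 ± 0.12 (adjusted p = 0.0714), and with the block it passed (0.000136) whichever library was left out.

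DLL1, a Delta-like ligand gene, lay near the floor and had no call without the block. Its level was 6.96 and 7.12 in siLATS1/2 libraries, 6.33 and 6.28 in sip53, 6.34 and 6.83 in siLATS1/2/p53, and 6.66 and 6.68 in siControl. Both siLATS1/2 libraries were highest and both sip53 libraries lowest. The differences from siControl were 0.37 ± 0.19 in siLATS1/2 cells (limma, adjusted p = 0.280) and -0.36 ± 0.19 in sip53 cells (0.321). Between siLATS1/2/p53 and siLATS1/2 it was -0.46 ± 0.19 (adjusted p = 0.142, with the block 0.0429), and that blocked call was lost without any 1 of 5 libraries, with adjusted p up to 0.330.

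RBPJ, which encodes the DNA-binding partner of the cleaved receptors, was highest in siControl and lowest after combined knockdown. Its level was 10.13 and 10.07 in siLATS1/2 libraries, 9.87 and 9.89 in sip53, 9.75 and 9.80 in siLATS1/2/p53, and 10.35 and 10.17 in siControl. The 4 groups did not overlap, and their order from the top was siControl, siLATS1/2, sip53 and siLATS1/2/p53. RBPJ fell by 0.48 ± 0.09, or 1.40-fold, in siLATS1/2/p53 cells relative to siControl (limma, adjusted p = 0.0175, with the block 0.000622). The call was lost without siControl replicate 1 (adjusted p = 0.0794) or either siLATS1/2/p53 library (0.0802 and 0.0631), and with the block it passed whichever library was left out.

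Other differences of RBPJ were smaller. In sip53 cells it was -0.38 ± 0.09 from siControl (limma, adjusted p = 0.0742, with the block 0.00607), and in siLATS1/2 cells -0.16 ± 0.09 (adjusted p = 0.343). For siLATS1/2/p53 minus siLATS1/2 it was -0.32 ± 0.09 (adjusted p = 0.0606). That value passed with the block (0.00906) and, after rescaling alone, reached -0.48 (adjusted p = 0.0258). The blocked sip53 call was lost without siControl replicate 1 or either sip53 library (adjusted p up to 0.125). The blocked call relative to siLATS1/2 was lost without either siLATS1/2 library or siLATS1/2/p53 replicate 1 (up to 0.102). Neighbouring groups in the order, siLATS1/2 and siControl, and siLATS1/2/p53 and sip53 (-0.10 ± 0.09, adjusted p = 0.630), did not differ beyond the threshold.

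HES1, the repressor gene whose promoter window holds same-strand matches to the core as printed above, was lowest in siLATS1/2 cells. Its level was 8.53 and 8.38 in siLATS1/2 libraries, 9.02 and 9.03 in sip53, 8.55 and 8.76 in siLATS1/2/p53, and 9.28 and 9.01 in siControl. The 4 libraries with LATS1/2 siRNA lay below the other 4, and the sip53 pair lay inside the siControl range. HES1 fell by 0.69 ± 0.14, or 1.61-fold, in siLATS1/2 cells relative to siControl (limma, adjusted p = 0.0309, with the block 0.000881). The difference was -0.75 and -0.63 within batches. The call was lost after rescaling (-0.61, adjusted p = 0.0535). It was also lost without either siLATS1/2 library (adjusted p = 0.158 and 0.151), either sip53 library (0.0693 and 0.0701) or either siControl library (0.123 and 0.0565). With the block it was lost without siLATS1/2 replicate 2 (0.0551).

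In siLATS1/2/p53 cells HES1 differed from siControl by -0.49 ± 0.14, which missed the threshold (limma, adjusted p = 0.0559). It passed with the block (0.00621) and after rescaling (-0.56, adjusted p = 0.0422). The blocked call was lost without siControl replicate 1 or siLATS1/2/p53 replicate 1 (adjusted p up to 0.121). In sip53 cells it differed by -0.12 ± 0.14 (adjusted p = 0.678). For siLATS1/2/p53 minus sip53 the difference was -0.37 ± 0.14 (adjusted p = 0.216, with the block 0.0445, lost without any 1 of 5 libraries), and for siLATS1/2/p53 minus siLATS1/2 it was 0.20 ± 0.14 (adjusted p = 0.355).

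HEY1, the other target gene, was at or just above the floor. It was listed at 5 in both siLATS1/2 libraries and both siLATS1/2/p53 libraries, at 5.73 and 5.66 in sip53, and at 5.17 and 5 in siControl. Only the sip53 libraries lay clearly above the floor, and it was these that brought the gene into the test, so no weight rests on its call. The difference on the floored scale was 0.61 ± 0.16 for sip53 minus siControl (limma, adjusted p = 0.0884, with the block 0.0293) and -0.69 ± 0.16 for siLATS1/2/p53 minus sip53 (adjusted p = 0.0657, with the block 0.0167).

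Whether the effect of the combined knockdown differed from the sum of the single ones was tested as an interaction. No Notch gene and no other entry passed (limma, 0 of 12315 adjusted). At an unadjusted p under 0.05 there were 807 entries, 1 of them a Notch gene, HEY1 (-0.61 ± 0.23). HEY1 was at the floor in all libraries with LATS1/2 siRNA, so this value only mirrors its difference in sip53 cells. With the batch as a block 250 entries passed, or 2.03%, and none of the 9. JAG1 had an interaction of -0.20 ± 0.17 (adjusted p = 0.846), JAG2 of -0.03 ± 0.17 and HES1 of 0.32 ± 0.20.

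The 2 batches differed for some of these genes in the fit with the block. NOTCH3 was higher in batch 2 than in batch 1 by 0.87 ± 0.13 (limma, adjusted p = 0.000316), in 4 of 4 groups, with gaps of 1.16 in siLATS1/2, 0.36 in sip53, 1.32 in siLATS1/2/p53 and 0.62 in siControl. JAG1 was higher by 0.18 ± 0.05 (adjusted p = 0.0156), also in 4 of 4 groups. The other 7 did not pass. Of all entries, 12.5% were higher in batch 2 and 17.8% lower. Other genes moved with the batch too: 6 of the 7 basal markers were higher in batch 2 (CDH3 did not pass), and the basal markers summed to 154000 to 194600 on the linear scale in batch 2 libraries and 118600 to 137300 in batch 1. Of 5 fibroblast markers COL1A1 was above the floor in all 8 libraries and DCN in 6, being at 5 in siLATS1/2 replicate 2 and siLATS1/2/p53 replicate 2. COL1A2, PDGFRB and LUM were at the floor in all libraries. With values at the floor left out, the summed linear level of the 5 was 167.8 to 325.3 in batch 2 libraries and 449.2 to 1090 in batch 1.

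By group, that fibroblast sum was 175.1 to 449.2 in siLATS1/2, 167.8 to 873.2 in sip53, 181 to 536.5 in siLATS1/2/p53 and 325.3 to 1090 in siControl, and its part in the Notch results was not tested. Of 4 endothelial markers PECAM1, CDH5 and TEK were at the floor in all libraries, and KDR was at 6.13 and 5.47 in siLATS1/2/p53 libraries and at 5 in the other 6. Of 3 blood markers PTPRC and CD3E were at the floor in all libraries. CD14 was 7.92 and 7.49 in siLATS1/2 libraries, 9.06 and 8.61 in sip53, 8.88 and 8.31 in siLATS1/2/p53, and 8.07 and 7.99 in siControl, so that the 4 libraries with p53 siRNA lay above the other 4. Of the luminal hormone receptor genes PGR was at the floor in all libraries. ESR1 was 5.75 and 6.26 in siLATS1/2 libraries, 5 in both sip53 libraries, 5 and 5.69 in siLATS1/2/p53, and 5 and 5.15 in siControl, highest in the siLATS1/2 pair. The part of these markers in the Notch results was not tested either. In bulk RNA, fewer cells expressing a gene and less RNA of it per cell cannot be told apart.

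**Figure D3:**
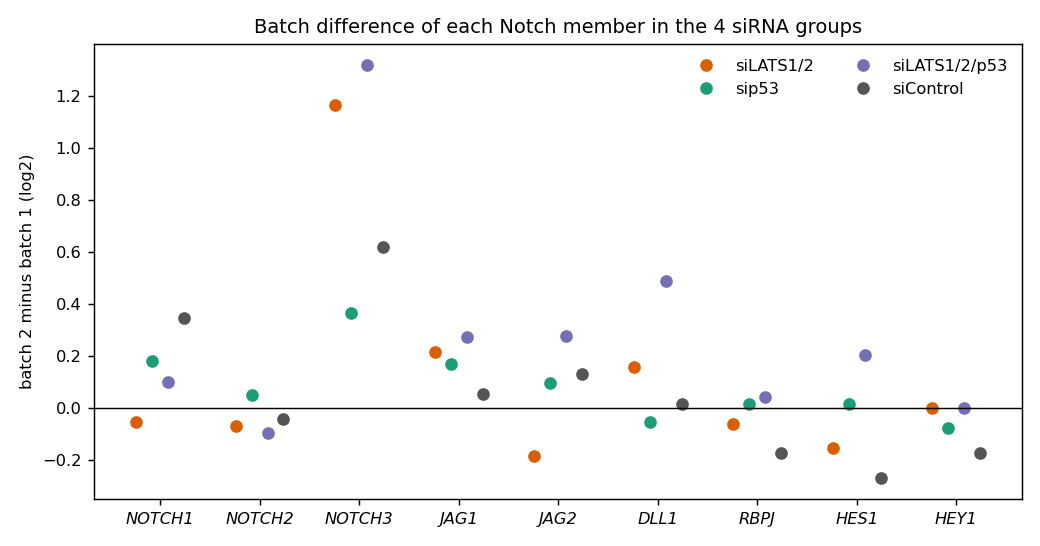
Difference between batch 2 and batch 1 in log2 level (vertical axis) for each Notch gene, 1 point per siRNA group. NOTCH3 lies above 0 in all 4 groups, from 0.36 in sip53 to 1.32 in siLATS1/2/p53, and JAG1 lies above 0 in all 4 with smaller gaps.

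The entries nearest in pattern to each Notch gene with a call were found by the root mean square difference of centred group means over the 4 groups. For NOTCH2 they were ARRDC1, USF1 and GUSB, at 0.00795 to 0.0155 on the log2 scale. For JAG1 they were STX1A and SPRY4, at 0.0313 and 0.0415, with an entry between them named only by a sequence accession. For JAG2 they were PPP2R5B, GAA and TP53INP2, at 0.0300 to 0.0417. For RBPJ they were EIF5, TMBIM4 and BRSK2, at 0.0102 to 0.0129, and for HES1 RAP2A, ABP1 and TRIB3, at 0.0255 to 0.0312. With 4 points per pattern and all entries searched, such likeness is a description of these group means.

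Beyond the 9 genes, 68 symbols of other Notch pathway components were listed, of which 66 were in the table, 10 at the floor in all libraries and 54 tested. NOTCH4, DLL4, DLK1, CNTN1, HES4, HES5, HEY2, HEYL, TLE2 and DTX1 were those at the floor. After combined knockdown 11 of the 54 were higher and 5 lower than in siControl, with a median of 0.12, where 9.07% of all entries were higher and 5.48% lower. In siLATS1/2 minus siControl 0 were higher and 3 lower (median 0.01), where 2.81% of all entries were higher and 4.89% lower. In sip53 minus siControl 1 was higher and 2 lower (median 0.08), where 1.76% of all entries were higher and 2.1% lower. In siLATS1/2/p53 minus siLATS1/2 7 were higher and 2 lower (median 0.14), where 11.3% of all entries were higher and 3.22% lower. In siLATS1/2/p53 minus sip53 the counts were 0 and 1 (median 0.07), where 2.54% of all entries were higher and 1.12% lower. After rescaling the splits were 7 higher and 6 lower in siLATS1/2/p53 minus siControl, and 1 higher and 4 lower in siLATS1/2/p53 minus siLATS1/2, where the split over all entries turned as well (547 higher and 653 lower after rescaling). With the batch as a block 9 were higher and 6 lower in siLATS1/2 minus siControl (10.5% and 21.4% of all entries). The counts were 11 and 9 in sip53 minus siControl (16% and 10%), and 19 and 10 in siLATS1/2/p53 minus siControl (25.5% and 13.8%). They were 22 and 8 in siLATS1/2/p53 minus siLATS1/2 (33.8% and 9.72%), and 9 and 3 in siLATS1/2/p53 minus sip53 (12.7% and 9.42%). In the interaction 1 of the 54 passed with the block, where 2.03% of all entries did. None passed without the block, or with block and rescaling.

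The 3 pathway genes with a call in siLATS1/2 minus siControl, DNER, GXYLT1 and MIB1, were all lower. DNER, which encodes a transmembrane Notch ligand described in the nervous system, was 9.60 and 9.24 in siLATS1/2 libraries, 11.10 and 10.92 in sip53, 10.26 and 9.81 in siLATS1/2/p53, and 11.05 and 10.73 in siControl. The 4 libraries with LATS1/2 siRNA lay below the other 4. DNER fell by 1.47 ± 0.19 in siLATS1/2 cells relative to siControl (limma, adjusted p = 0.00816). In siLATS1/2/p53 cells it fell by 0.97 ± 0.19 relative to sip53 (adjusted p = 0.0406) and by 0.86 ± 0.19 relative to siControl (0.0276). GXYLT1, a xylosyltransferase that extends glucose on Notch receptors, fell by 1.02 ± 0.14 in siLATS1/2 cells (adjusted p = 0.00953) and by 0.83 ± 0.14 in siLATS1/2/p53 cells (0.0113). MIB1, the ubiquitin ligase that drives ligand endocytosis, fell by 0.63 ± 0.10 in siLATS1/2 cells (adjusted p = 0.0166).

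NEURL1B, which encodes another ligand ubiquitin ligase, rose after combined knockdown. It was 8.26 and 7.62 in siLATS1/2 libraries, 8.83 and 8.25 in sip53, 9.42 and 9.07 in siLATS1/2/p53, and 8.10 and 7.20 in siControl. Both siLATS1/2/p53 libraries lay above the other 6. It rose by 1.60 ± 0.35 relative to siControl (limma, adjusted p = 0.0254) and by 1.31 ± 0.35 relative to siLATS1/2 (adjusted p = 0.0482), and after rescaling the second call was lost (1.15, adjusted p = 0.0809). POFUT1, the fucosyltransferase that readies receptors for ligand binding, rose by 0.27 ± 0.07 relative to siControl (adjusted p = 0.0463), a call lost after rescaling (0.20, adjusted p = 0.113).

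Of 8 receptor cleavage genes, the protease gene ADAM17 rose by 0.80 ± 0.15 and the gamma-secretase subunit gene APH1A by 0.58 ± 0.10 in siLATS1/2/p53 cells relative to siControl (limma, adjusted p = 0.0166 and 0.0115). In that comparison 9.07% of all entries were higher and 5.48% lower. The paralogous subunit gene APH1B fell by 1.11 ± 0.21 in sip53 cells (adjusted p = 0.0401) and by 0.82 ± 0.21 in siLATS1/2/p53 cells (0.0423). Its level was 7.62 and 7.06 in sip53 libraries and 7.81 and 7.45 in siLATS1/2/p53, against 8.52 and 8.38 in siControl. The other 5 cleavage genes did not pass in any comparison without the block.

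Of 8 nuclear coactivator genes tested, 1 rose in sip53 cells and 2 in siLATS1/2/p53 cells relative to siControl. Relative to siLATS1/2, 2 rose in siLATS1/2/p53 cells. Over all entries, 1.76%, 9.07% and 11.3% rose in these comparisons. With so few genes per role, these counts and those of the corepressors are a description. MAML1, the Mastermind-like coactivator gene, rose by 0.39 ± 0.08 in sip53 cells (limma, adjusted p = 0.0448), by 0.46 ± 0.08 in siLATS1/2/p53 cells (0.0115) and by 0.51 ± 0.08 relative to siLATS1/2 (0.00949). The sip53 call was lost after rescaling (0.33, adjusted p = 0.0554). Of 9 corepressor genes tested, SPEN and HDAC1 rose in siLATS1/2/p53 cells relative to siControl (0.32 ± 0.08 and 0.29 ± 0.08). Relative to siLATS1/2, HDAC1, TLE1 and TLE3 rose, with TLE1 at 0.57 ± 0.11 (adjusted p = 0.0162). After rescaling these 3 calls were lost, with adjusted p of 0.0593 to 0.326. The calls of SPEN and HDAC1 relative to siControl were lost as well (adjusted p = 0.103 and 0.127).

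Among genes listed under restraint or turnover of receptors, 3 Deltex family genes rose in siLATS1/2/p53 cells relative to siControl, where 9.07% of all entries were higher. They were DTX2 (0.77 ± 0.17), DTX3 (0.82 ± 0.21) and DTX3L (0.93 ± 0.23). What their rise does to Notch output was not tested. FBXW7, the ubiquitin ligase subunit that marks the cleaved receptor for destruction, fell by 0.53 ± 0.11 (limma, adjusted p = 0.0239) and by 0.44 ± 0.11 relative to siLATS1/2 (0.0434). DTX3 was lost after rescaling (0.74, adjusted p = 0.0681). HES2, a further HES family gene, was 11.13 and 11.22 in siLATS1/2 libraries, 9.73 and 9.80 in sip53, 9.89 and 10.23 in siLATS1/2/p53, and 10.50 and 10.87 in siControl. The 4 libraries with p53 siRNA lay below the other 4. HES2 fell by 0.91 ± 0.15 in sip53 cells (adjusted p = 0.0315) and by 0.62 ± 0.15 in siLATS1/2/p53 cells (0.0370), and by 1.12 ± 0.15 in siLATS1/2/p53 cells relative to siLATS1/2 (0.00727). In siLATS1/2 cells its difference was 0.49 ± 0.15 (adjusted p = 0.1, with the block 0.00131).

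Each of the 32 calls of these 20 pathway genes was lost without at least 1 library, and 11 were lost after rescaling. All 32 were lost with only the groups compared, and 12 without the mean-variance trend in limma. The 3 calls in siLATS1/2 minus siControl were lost without siControl replicate 1 or either siLATS1/2 library, with adjusted p up to 0.133. The 3 in sip53 minus siControl were lost without any 1 of the 8 libraries, with adjusted p up to 0.256, as was the call of DNER in siLATS1/2/p53 minus sip53 (up to 0.209). Of the 16 in siLATS1/2/p53 minus siControl, 14 were lost without siLATS1/2/p53 replicate 1, 13 without siLATS1/2/p53 replicate 2, 13 without siControl replicate 1 and 12 without siControl replicate 2. The 9 in siLATS1/2/p53 minus siLATS1/2 were all lost without siLATS1/2 replicate 1, siLATS1/2 replicate 2 or siLATS1/2/p53 replicate 1, with adjusted p up to 0.237.

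With the batch as a block these 20 genes kept all 32 calls and gained 35 in the comparisons between groups. For these 35, libraries were not left out in turn. The 20 had been picked for a call without the block, and genes called only with it are not named. With the block 39 of the 54 pathway genes tested had a call in at least 1 comparison, where 67.1% of all entries tested had one. In siLATS1/2 minus siControl ADAM17, APH1A, DTX2, DTX3, DTX3L and HES2 were higher (limma, adjusted p = 0.00131 to 0.00808) and TLE3 lower (0.0318). In sip53 minus siControl ADAM17, APH1A, DTX2, DTX3L, NEURL1B and POFUT1 were higher (0.000366 to 0.0471), and FBXW7 and GXYLT1 lower (0.00569 and 0.00853). Relative to siControl, siLATS1/2/p53 cells gained a higher TLE1 (0.00843) and a lower MIB1 (0.00559). Relative to siLATS1/2 they gained higher ADAM17, APH1A, DNER, DTX2, DTX3L, GXYLT1, MIB1 and SPEN (9.19e-05 to 0.0421) and lower APH1B (0.00432). Relative to sip53 they gained higher ADAM17, APH1A, DTX2, DTX3, DTX3L, HES2 and NEURL1B (0.000741 to 0.0488), and lower GXYLT1 and MIB1 (7.4e-05 and 0.00384). Over all entries, 10.5% were higher and 21.4% lower with the block in siLATS1/2 minus siControl, and 16% and 10% in sip53 minus siControl. For siLATS1/2/p53 the shares were 25.5% and 13.8% relative to siControl, 33.8% and 9.72% relative to siLATS1/2, and 12.7% and 9.42% relative to sip53.

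**Figure D4:**
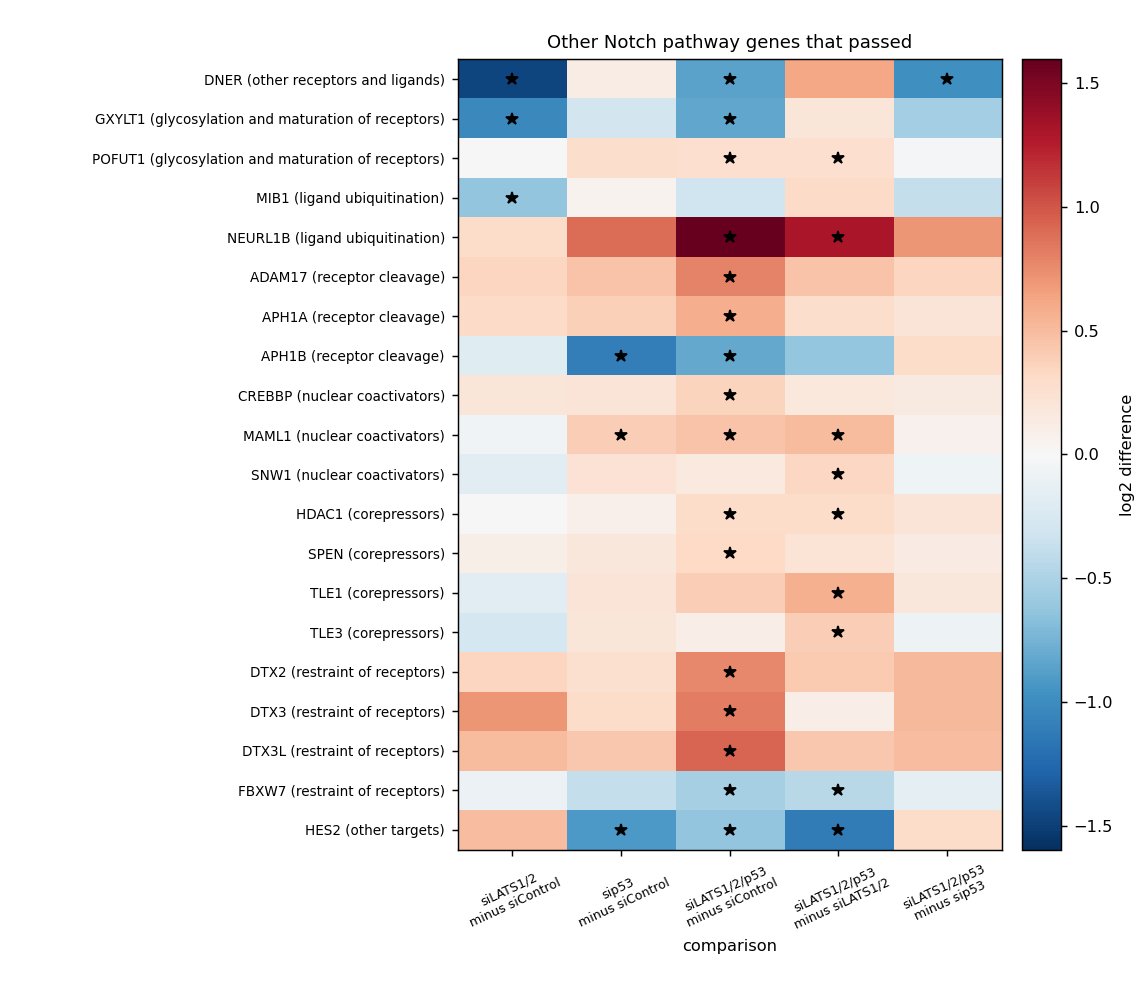
Difference in log2 level (colour) of the 20 other pathway genes with a call, with their role in brackets, in the 5 comparisons between groups. A star marks adjusted p under 0.05 without the batch block, and the siLATS1/2/p53 minus siControl column holds 16 of the 32 stars.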

How the data were processed

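Polyadenylated RNA of 8 MCF10A libraries was sequenced from TruSeq version 2 libraries multiplexed on 1 lane, per the labels' protocols. This kit does not keep strand. TopHat and hg19 were used, per the submitters' processing notes. For the counter, annotation and scaling the authors' choice was not given in the sources used here, nor was the reason for the floor of 5. Deposited values were treated as log2 levels, and all 8 library files matched the deposited series table. Whole reads could not be recovered (35% to 60.6% of low values within 0.1 of a whole number), so counts were not modelled.

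The test was limma's (version 3.58.1, R 4.3.3), allowing a mean-variance trend, on 4 groups together with 4 residual degrees of freedom, for entries above the floor in 2 or more libraries. No pseudocount was added in this fit, since the deposited values were already logged. Adjustment was by Benjamini-Hochberg, with a threshold of 0.05. The labels say that same-numbered libraries share a batch, and their deviations from group means correlated between 0.565 and 0.726, so results with a batch block are printed where they change a call. The procedure was also run on simulated data. Noise there was drawn for each library alone, with no shared batch, so that run cannot show how the procedure performs on these libraries.

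The 9 genes and the pathway lists were chosen with earlier results of these data known. Other pathway genes are named where called in at least 1 comparison, up to 4 per role and comparison by smallest p, and nearest patterns are the 3 closest for each called gene. Alternatives were rescaling, other filters, pseudocounts of 1 and 32 on the linear scale, the block, no trend, only the groups compared and each library left out. The block with rescaling, and libraries left out under the block, were added after seeing the data. With 1 library left out, a lone sample is taken to vary as the remaining groups do. Some results, among them the level of the p53 siRNA's own target gene, are not reported here. Promoters are from RefSeq on GRCh38.p14.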

Additional observations from a re-analysis of the deposited data

How the results depend on the processing

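None of the 7 calls of Notch genes changed sign under the alternatives run. Besides the libraries left out, given beside each call, JAG2 in siLATS1/2 minus siControl was lost with the looser filter (adjusted p = 0.0521) and without the mean-variance trend (0.0698), JAG1 in siLATS1/2/p53 minus siLATS1/2 without the trend (0.0664), and all 7 with only the groups compared. HEY1 passed in 2 comparisons with the looser filter and without the trend. The cause was not tested, except that only the groups compared leaves 4 libraries in a fit.

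Over all entries, 948 were called in siLATS1/2 minus siControl, 475 in sip53 minus siControl, 1792 in siLATS1/2/p53 minus siControl, 1791 in siLATS1/2/p53 minus siLATS1/2, 451 in siLATS1/2/p53 minus sip53 and 0 in the interaction. With the replicate block these counts were 3937, 3199, 4832, 5361, 2720 and 250, and with block and rescaling 3473, 3049, 4717, 4205, 2830 and 112. With only the groups compared they were 0, 0, 374, 0 and 0, with the interaction not run. Without the trend sip53 minus siControl had 294. Leaving out 1 library gave 43 to 700, 18 to 165, 553 to 1265, 12 to 1837, 49 to 362 and 0 to 0. The lowest counts came without siLATS1/2 replicate 1 for siLATS1/2 minus siControl and for siLATS1/2/p53 minus siLATS1/2, without sip53 replicate 2 for sip53 minus siControl, without siLATS1/2/p53 replicate 1 for siLATS1/2/p53 minus siControl, and without siLATS1/2/p53 replicate 2 for siLATS1/2/p53 minus sip53. The floor stood for an estimated 14.6 to 50 reads, which limits what can be said of HEY1 and DLL1.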
